A study of Arabidopsis thaliana with 20 samples.

Results

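The 8 genes described here encode enzymes and a receptor of the seed protein storage vacuole of *Arabidopsis thaliana*. They are the vacuolar processing enzymes αVPE (AT2G25940), βVPE (AT1G62710), γVPE (AT4G32940) and δVPE (AT3G20210), the aspartic proteases APA1 (AT1G11910), APA2 (AT1G62290) and APA3 (AT4G04460), and the vacuolar sorting receptor VSR1 (AT3G52850). They were chosen by function, as 8 of the 37184 genes in the count data. The rule of choice used no measured value, but earlier results of these data were known when it was made. The study asked how *MUSHER*, a long non-coding RNA transcribed downstream of the seed dormancy gene *DOG1*, acts on seed dormancy. Its 3'RNA-seq compared *msh-1*, a homozygous T-DNA insertion line in which *MUSHER* transcription is disrupted, with wild type (WT), both in the Col-0 background and each with 4 libraries. All plants grew on soil under long days without treatment, and *msh-1* is 1 insertion line, so a second change carried by that line cannot be told apart from the loss of *MUSHER*. The labels give the material as siliques between 13 and 20 days after pollination, while the text of the study speaks of freshly harvested seeds.

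Seed storage proteins are made on the endoplasmic reticulum as precursors, the 12S globulins (cruciferins) and the 2S albumins. VSR1 binds the precursors and carries them to the storage vacuole, and seeds without it secrete part of them out of the cell. In the vacuole the VPEs, cysteine proteases that cut after asparagine, split the precursors into their mature chains, and the aspartic proteases, which carry a saposin-like insert, trim them further. βVPE is the seed-type enzyme, αVPE and γVPE are known mainly from vegetative and senescing tissue, and δVPE is known from the seed coat early in seed development.

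A 3'RNA-seq read marks the end of a transcript, so the deposited counts do not grow with transcript length, and CPM (counts scaled to the library total, after correction with TMM factors, edgeR's factors for library composition) can be set side by side between genes. The totals ran from 2590800 to 6500907 counts in the *msh-1* libraries and from 959004 to 2498295 in the WT libraries, so depth and genotype cannot be told apart. The summed level of 8 embryo maturation markers was 76330 to 89180 CPM in *msh-1* and 81950 to 88580 CPM in WT. The 8 markers of green tissue summed to 41.6, 148, 135 and 131 CPM in *msh-1* and to 132, 106, 115 and 20.8 CPM in WT. Libraries *msh-1* 1 and WT 4 were thus the lowest of their genotype in summed green tissue RNA. The sum of the 3 senescence markers was lowest in them too, at 17.2 CPM in *msh-1* 1 and 29.6 CPM in WT 4. Of these markers, *SAG29* went the other way in WT 4, with 3.08, 3.77, 6.40 and 7.67 CPM in WT 1 to 4. The 6 seed coat markers summed to 3.85 to 11.9 CPM in *msh-1* and 4.38 to 20.0 CPM in WT. Of these, 5 stayed at or under 3.82 CPM, with *TT12* at 0 in 7 of the 8 libraries, while *MUM2* had 0.481, 5.74, 1.24 and 0.237 CPM in *msh-1* and 16.2, 10.0, 11.6 and 1.096 CPM in WT (log2 fold change -2.78, SE 0.654, edgeR adjusted p = 0.121). Of the 2 endosperm markers, *EPR1* was high (21210 to 37440 CPM in *msh-1* and 15590 to 38530 CPM in WT) and *ZOU* was at 0 in 7 of 8. In such bulk material, fewer cells of a type and less RNA per cell cannot be told apart.

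The 8 genes fell into 4 tiers of level. APA1 averaged 562 CPM and βVPE 557 CPM over the 8 libraries, which put them at ranks 167 and 171 of the 10902 genes that passed the filter on low counts. VSR1 averaged 152 CPM and γVPE 146 CPM, and APA2 averaged 59.2 CPM. αVPE, δVPE and APA3 stayed at or under 2.47 CPM in every library and did not pass the filter, so 5 of the 8 genes were tested. The ranges of APA1 and βVPE overlapped over the 8 libraries, as did those of VSR1 and γVPE, so neither pair can be ordered beyond its spread. APA2 lay below all values of the second tier and above all values of the lowest one. The 3 genes of the lowest tier overlapped one another.

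**Figure D1:**
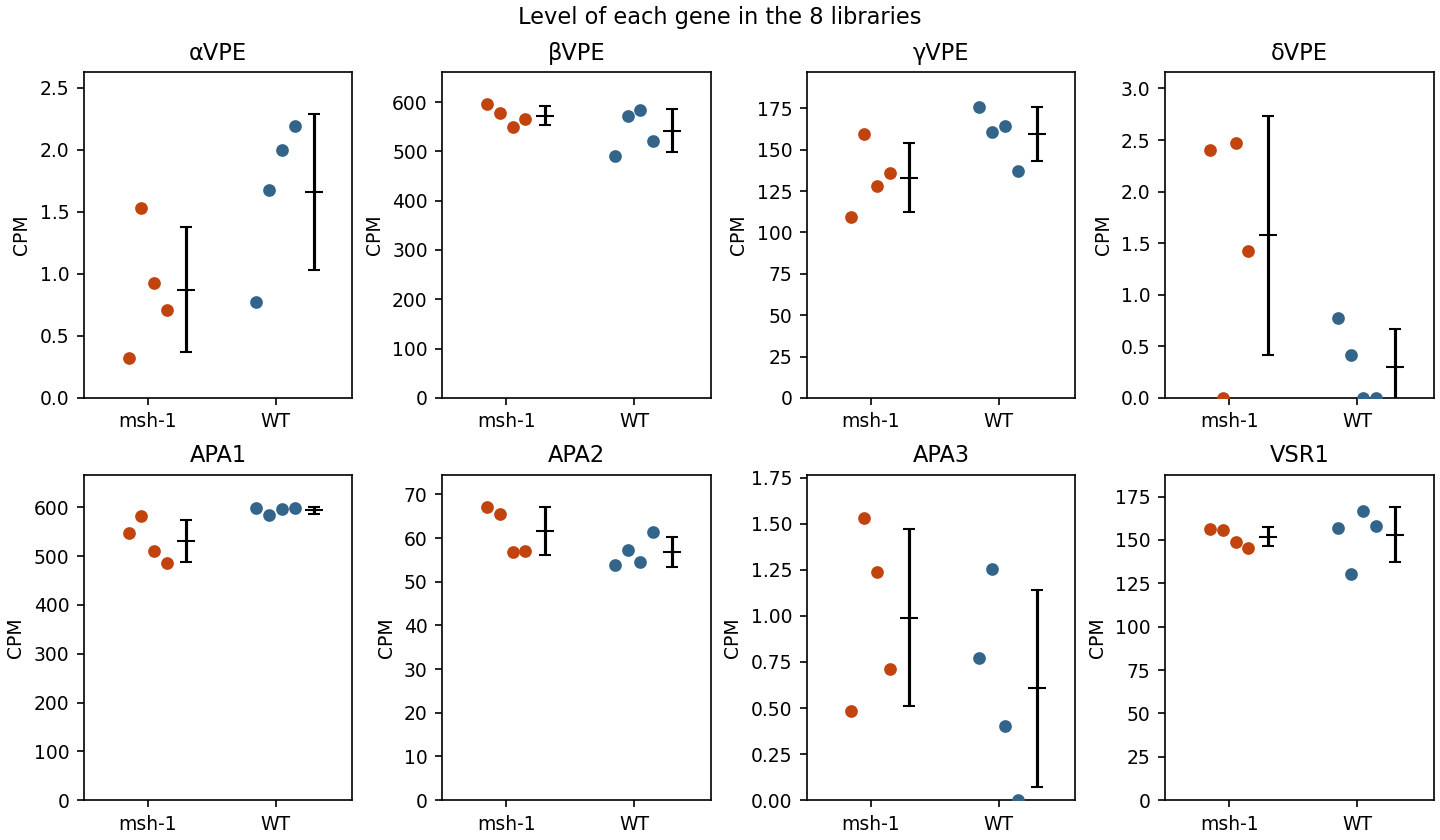
Level of each of the 8 genes in CPM (vertical axes, linear from 0, scaled with TMM factors) in the 4 *msh-1* and the 4 WT libraries. Each point is a library and the bar beside it is the mean ± SD. βVPE and APA1 lie between 485 and 598 CPM in both genotypes, while αVPE, δVPE and APA3 stay at or under 2.47 CPM.

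None of the 5 tested genes differed between *msh-1* and WT at the threshold of the study (edgeR quasi-likelihood test, a change of more than 1.5-fold at an adjusted p below 0.05). The background was low, as 45 of 10902 genes, or 0.413%, were called, 11 higher in *msh-1* (0.101%) and 34 lower (0.312%). At an unadjusted p under 0.05, 1 of the 5 genes (γVPE, lower in *msh-1*) passed, where 8.48% of all tested genes did (3.99% higher and 4.49% lower). DESeq2 and limma-voom also called none of them, with 0 and 2 of the 5 under an unadjusted p of 0.05. The study applied its threshold with DESeq2, which called 89 genes here, and the study itself reported more. The 95% interval of each of the 5 fold changes lay inside a 1.5-fold change in either direction, the widest reach being 0.697-fold for γVPE and 1.27-fold for APA2. The intervals are not adjusted for the number of genes. In simulated data with these depths, 11 of 48 genes changed 1.5-fold and 32 of 46 genes changed 2-fold were called among 10630 tested. The changed genes were drawn at random over all levels, while the 5 genes lie at percentiles 85.7 to 98.5 of mean CPM. These shares therefore do not give the sensitivity for the 5 genes.

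**Figure D2:**
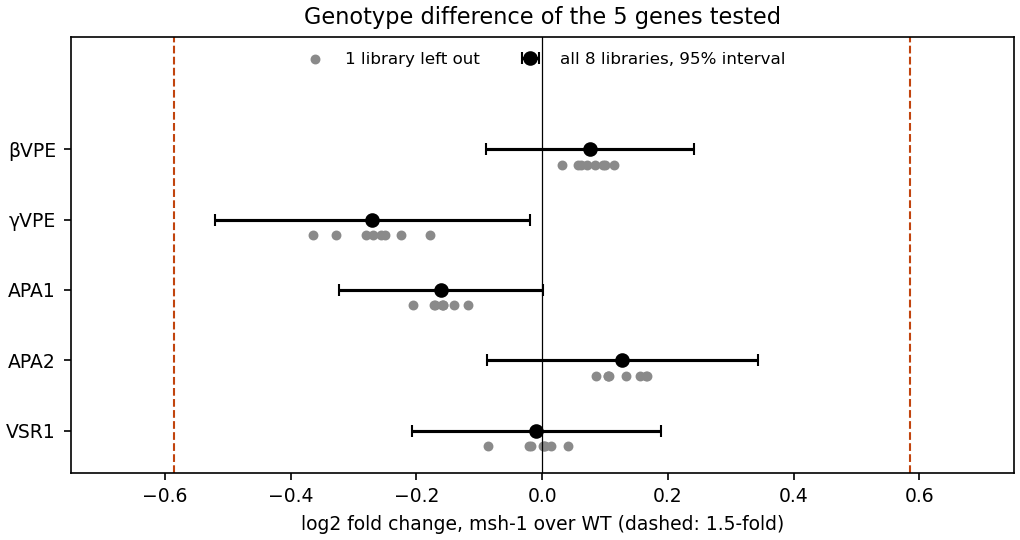
Log2 fold change of *msh-1* over WT (horizontal axis) for the 5 genes that passed the filter. Black points and bars are the edgeR estimate from 8 libraries with its 95% interval, grey points are the 8 fits with 1 library left out, and dashed lines mark a 1.5-fold change. All 5 intervals lie between the dashed lines, and those of βVPE, APA1, APA2 and VSR1 include 0.

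VSR1, the receptor, had nearly the same mean in both genotypes. It had 157, 156, 149 and 145 CPM in the *msh-1* libraries and 157, 131, 167 and 158 CPM in the WT libraries. The *msh-1* values lay inside the range of the WT values. The means were 152 ± 5.49 CPM in *msh-1* and 153 ± 15.7 CPM in WT (SD, n = 4 each). The log2 fold change was -0.0091 (SE 0.092, 95% interval -0.21 to 0.19, edgeR adjusted p = 0.9999), and the sign of this value turned with the scaling factors. VSR1 was also among the genes that varied least, as its SD of log2(CPM + 0.5) over the 8 libraries (0.106) was at percentile 5.09 of all tested genes. That percentile was not matched for level, and VSR1 was at percentile 95 of mean CPM.

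βVPE, the seed-type processing enzyme, was the most abundant VPE in every library. It had 595, 579, 550 and 565 CPM in *msh-1* and 491, 571.5, 584 and 521.5 CPM in WT. The groups overlapped, and the means of 572 ± 19.2 CPM in *msh-1* and 542 ± 43.4 CPM in WT differed by less than the spread of the WT libraries (SD, n = 4 each). The log2 fold change was 0.076 (SE 0.077, 95% interval -0.089 to 0.24, edgeR adjusted p = 0.846). The SD over all libraries (0.0931 on the log2 scale) was at percentile 3.08, the lowest of the 5 tested genes. This percentile too was not matched for level, and βVPE was at percentile 98.4 of mean CPM.

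γVPE, a VPE of vegetative vacuoles, showed the largest fitted difference of the 5 tested genes. It had 109, 160, 128 and 136 CPM in *msh-1* and 176, 161, 164 and 137 CPM in WT. In *msh-1*, library 2 lay within the WT values and the other libraries lay under all of them, library 4 by less than 1 CPM below WT 4. The means were 133 ± 20.8 CPM in *msh-1* and 159 ± 16.2 CPM in WT (SD, n = 4 each), a log2 fold change of -0.27 (SE 0.117, 95% interval -0.52 to -0.020). The edgeR p was 0.0365 before and 0.544 after adjustment over all genes, and the exact two-sided permutation test over libraries gave 0.0571. With 4 libraries against 4, the smallest p this test can give is 0.0286.

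αVPE and δVPE had few counts. αVPE had 2, 4, 3 and 3 counts in the *msh-1* libraries and 1, 4, 5 and 2 counts in the WT libraries. The 12 counts in each genotype gave a depth-adjusted ratio of *msh-1* over WT of 0.436 (95% interval 0.179 to 1.06 for counting error only), and the permutation p over libraries was 0.114 (exact, two-sided). δVPE had 15, 0, 8 and 6 counts in *msh-1* and 1, 1, 0 and 0 counts in WT. The sums of 29 counts in *msh-1* and 2 in WT gave a ratio of 6.32 (1.6 to 54.7, counting error only). The difference exceeded counting error, but *msh-1* 2 had no count and the genotypes overlapped. The exact permutation p of the difference in mean log2(CPM + 0.5) was 0.171. Fitted without the filter, edgeR gave δVPE a log2 fold change of 2.46 (SE 0.873) and an adjusted p of 0.149. A count of 3, taken as the floor of detection, corresponds to 0.462 to 1.16 CPM in *msh-1* and to 1.20 to 3.13 CPM in WT. αVPE had at most 5 counts in a library, while δVPE lay above the floor in 3 *msh-1* libraries and below it in all WT libraries. Of the seed coat markers, *MUM2* and *BAN* (mean 0.725 CPM in *msh-1* and 0.945 CPM in WT) had the opposite direction to δVPE. The means of *TT10* (1.27 and 0.418 CPM), *TT4* (2.90 and 1.69 CPM), *PRX36* (0.882 and 0.385 CPM) and *TT12* (0.040 and 0 CPM) were higher in *msh-1*, as for δVPE. All but *MUM2* were low in both genotypes, and the genotypes overlapped for each of these markers. The part of seed coat RNA in the δVPE counts was not tested.

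The makeup of the VPE family needs no scaling between libraries. βVPE made up 84.2, 78.2, 80.7 and 80.4% of the VPE counts in *msh-1* and 73.5, 77.8, 77.9 and 78.9% in WT. The means were 80.9 ± 2.46% in *msh-1* and 77.0 ± 2.41% in WT (SD, n = 4 each), and the groups overlapped. The exact 95% binomial interval was narrowest in *msh-1* 1 (83.1 to 85.2% of 4407 counts) and widest in WT 4 (75.5 to 82.1% of 603 counts). These intervals cover counting error only. There were 5.45, 3.63, 4.30 and 4.15 βVPE counts for each γVPE count in *msh-1*, against 2.80, 3.56, 3.56 and 3.81 in WT. *msh-1* 1 had the highest ratio and WT 1 the lowest.

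APA1 was the most abundant aspartic protease and, of the 5 tested genes, the only one whose 2 genotypes did not overlap. It had 547, 582, 510 and 485 CPM in *msh-1* and 598, 583, 596 and 598 CPM in WT. The gap was narrow, since *msh-1* 2 (581.7 CPM) and WT 2 (583.2 CPM) almost met, and the WT values lay much closer together than those of *msh-1*. Over all tested genes, 4.76% had groups that did not overlap. The means were 531 ± 42.3 CPM in *msh-1* and 594 ± 7.04 CPM in WT (SD, n = 4 each), and the exact permutation p was 0.0286, the smallest possible. The log2 fold change was -0.16 (SE 0.075, 95% interval -0.32 to 0.00078), a 0.894-fold level, with an edgeR p of 0.0510 before and 0.594 after adjustment.

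APA2, the second aspartic protease, went the other way without passing the test. It had 67.1, 65.4, 56.9 and 57.0 CPM in *msh-1* and 53.9, 57.3, 54.4 and 61.4 CPM in WT. Libraries *msh-1* 1 and 2 lay above all WT values and the other *msh-1* libraries lay among them. The means were 61.6 ± 5.39 CPM in *msh-1* and 56.8 ± 3.41 CPM in WT (SD, n = 4 each). The log2 fold change was 0.13 (SE 0.101, 95% interval -0.088 to 0.34, edgeR adjusted p = 0.781).

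APA3, known from tissues that undergo developmental cell death, had 3, 4, 4 and 3 counts in *msh-1* and 1, 3, 1 and 0 counts in WT. The 14 counts in *msh-1* and 5 in WT gave a ratio of 1.22 (0.416 to 4.33, counting error only), and the exact permutation p was 0.314. The overlapping gene AT4G04470 on the opposite strand, whose end shares 214 bases with that of APA3, had 25 to 194 counts in each library. The strand setting of the counting is not given in the sources used here, so reads in a shared end cannot be assigned to either gene with certainty. αVPE, γVPE and VSR1 also share their ends with a gene on the opposite strand, over 24, 20 and 100 bases, and those neighbours had 382, 648 and 563 counts over the 8 libraries. δVPE overlaps AT3G03955 on the opposite strand over 220 bases, and 0 counts were given to AT3G03955 in the 8 libraries. βVPE, APA1 and APA2 overlap no other gene in the TAIR10.1 annotation.

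Within a library, APA1 took 89, 89.7, 89.8 and 89.4% of the counts of the 3 aspartic protease genes in *msh-1* and 91.6, 90.9, 91.6 and 90.7% in WT. All 4 *msh-1* shares lay below all 4 WT shares, with means of 89.4 ± 0.346% in *msh-1* and 91.2 ± 0.472% in WT (SD, n = 4 each), a difference of -1.74 percentage points. The exact binomial intervals of single libraries overlapped for some pairs of *msh-1* and WT libraries but not for all, as *msh-1* 1 (88.0 to 90.0%) and WT 3 (90.1 to 92.9%) were apart. In counts, APA1 exceeded APA2 8.15 to 8.96 times in *msh-1* and 9.75 to 11.1 times in WT. APA1 over βVPE was 0.919, 1.01, 0.927 and 0.858 in *msh-1* and 1.22, 1.02, 1.02 and 1.147 in WT. APA1 thus exceeded βVPE in all 4 WT libraries but in *msh-1* 2 alone among the *msh-1* libraries. These ratios were picked out after their values were seen and were given no test.

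**Figure D3:**
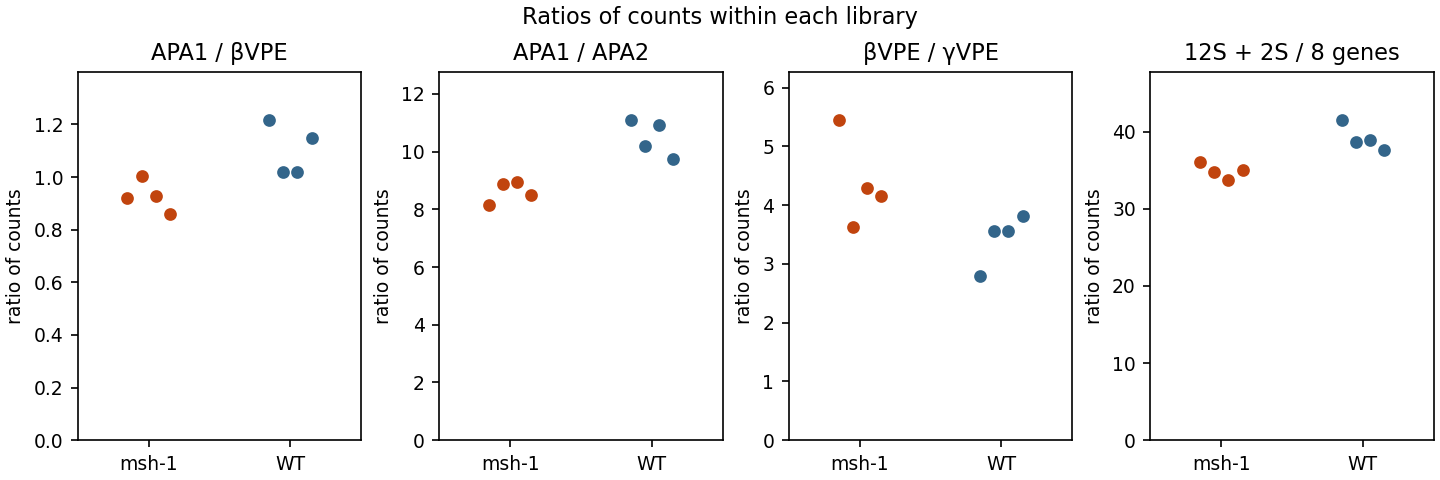
Ratios of counts within each library (vertical axes, linear from 0), with 4 *msh-1* and 4 WT libraries as points. From the left, APA1 over βVPE, APA1 over APA2, βVPE over γVPE, and the summed 12S globulin and 2S albumin counts over the summed counts of the 8 genes. The *msh-1* points lie below the WT points in the first, second and last panel, and the groups overlap in the third.

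The cargo of the pathway was far more abundant than its machinery. The 8 genes held 0.140 to 0.156% of all counts in *msh-1* and 0.141 to 0.157% in WT. The 9 genes of the 12S globulins and 2S albumins held 4.80 to 5.43% in *msh-1* and 5.28 to 6.10% in WT. There were 36.1, 34.8, 33.8 and 35.1 storage protein counts for each count of the 8 genes in *msh-1*, against 41.5, 38.7, 38.9 and 37.6 in WT. The *msh-1* values all lay below the WT values, and no test was made of this ratio. It pools genes that differed in direction and size. The log2 fold changes of the 12S genes *CRA1*, *CRB*, *CRC* and *CRU4* were 0.024, -0.11, -0.044 and 0.087, and their genotypes overlapped. Those of the 2S genes *SESA1* to *SESA5* were -0.00093, -0.25, -0.33, -0.73 and -0.56, without overlap of the genotypes for *SESA4* and *SESA5* alone.

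Of the 9 storage protein genes, 1 was called and 3 had an unadjusted p under 0.05, all lower in *msh-1*. The called gene was *SESA4*, a 2S albumin, with 807 ± 144 CPM in *msh-1* and 1346 ± 283 CPM in WT (SD, n = 4 each), a log2 fold change of -0.73 (SE 0.146, edgeR adjusted p = 0.0457). Its groups did not overlap, but it was not called with RLE factors (adjusted p = 0.0504), without scaling factors, with limma-voom or in 6 of the 8 edgeR fits that left out 1 library (adjusted p up to 0.168). The most abundant members of this list were the cruciferin gene *CRA1*, with 15010 ± 1500 CPM in *msh-1* and 14770 ± 999 CPM in WT, and the 2S albumin gene *SESA5*. *SESA5* had 11280 ± 1622 CPM in *msh-1* and 16650 ± 3300 CPM in WT, with a log2 fold change of -0.56 (SE 0.126, edgeR adjusted p = 0.0933). DESeq2 gave it an adjusted p of 0.0256 at a log2 fold change of -0.55, which fell short of the 1.5-fold threshold. The median log2 fold change of the 9 genes was -0.11, beside -0.010 over all tested genes.

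Among the other sorting receptors, 4 of 9 genes were tested and none was called. The tested genes were *VSR3*, *VSR4*, *RMR1* and AT1G71980, and AT1G71980 and *VSR4* were the highest in level, apart from VSR1. *VSR4*, a relative of VSR1, had 46.9, 47.4, 44.2 and 48.5 CPM in *msh-1* and 57.0, 48.5, 56.8 and 62.4 CPM in WT. Its groups met without overlap, and its log2 fold change was -0.25 (SE 0.101, edgeR adjusted p = 0.512). AT1G71980 had 37.1, 31.0, 37.7 and 33.6 CPM in *msh-1* and 30.0, 22.6, 22.0 and 26.3 CPM in WT. Its log2 fold change was 0.51 (SE 0.132), with an edgeR p of 0.00177 before and 0.155 after adjustment, and its groups did not overlap. VSR1, at 152 CPM over the 8 libraries, lay well above *VSR4* at 51.5 CPM.

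Some of the retromer and vacuolar trafficking genes return receptors from the prevacuolar compartment or help to fuse it with the vacuole. The list had no member called and none with an unadjusted p under 0.05 among 16 tested of 18. The most abundant were the Rab GTPase genes *RHA1*, with 69.3 ± 7.08 CPM in *msh-1* and 75.02 ± 5.96 CPM in WT, and *ARA7*, with 43.0 ± 2.07 CPM in *msh-1* and 46.7 ± 3.63 CPM in WT (SD, n = 4 each). The median log2 fold change of the list was -0.092. The cystatins, inhibitors of papain-type proteases and in part of VPEs, had none of 7 genes called and none under an unadjusted p of 0.05, with a median of -0.096. *CYS6* had 939 ± 87.5 CPM in *msh-1* and 1018 ± 27.6 CPM in WT, and *CYS4* had 135 ± 12.7 CPM in *msh-1* and 126 ± 9.15 CPM in WT (SD, n = 4 each).

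Papain-type proteases are a further family of cysteine proteases, many of them in the vacuole beside the VPEs. Of 16 genes, 10 were tested, none was called, and 1 had an unadjusted p under 0.05. All 10 had a negative fold change, as did 5670 of all 10902 tested genes. The median log2 fold change was -0.28. The most abundant was AT3G54940, annotated as a papain family cysteine protease, with 1854 ± 93.2 CPM in *msh-1* and 2013 ± 90.0 CPM in WT (SD, n = 4 each, log2 fold change -0.12, SE 0.068, edgeR adjusted p = 0.690). It was more abundant than βVPE and APA1 in every library. The next was *RD21A*, with 123, 333, 268 and 263 CPM in *msh-1* and 358, 294, 328 and 132 CPM in WT. Its lowest libraries were *msh-1* 1 and WT 4, and its genotypes overlapped widely (edgeR adjusted p = 0.908).

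γVPE shared this pattern in part, since *msh-1* 1 and WT 4 were its lowest libraries in each genotype. Of the 10 tested papain-type genes, 8 had both *msh-1* 1 and WT 4 as the lowest library of their genotype, as did 6 of the 7 tested green tissue markers and 1403 of all 10902 tested genes (12.9%). None of the other 4 tested genes of the 8 did. The swings differed in size, with an SD on the log2 scale of 0.227 for γVPE and 0.603 for *RD21A*. *AALP*, an aleurain-like protease named here after its values were seen, had 21.2, 83.8, 34.6 and 35.5 CPM in *msh-1* and 186, 160, 153 and 29.6 CPM in WT. Its log2 fold change was -1.70 (SE 0.420, edgeR adjusted p = 0.131). The part of green or senescing tissue RNA in the γVPE and papain values was not tested.

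Without *msh-1* 1 and WT 4, 280 of 11088 genes were called (2.53%, 175 lower or 1.58% and 105 higher or 0.947%), and none of the 5 tested genes was among them. γVPE then had a log2 fold change of -0.24 (SE 0.094, edgeR adjusted p = 0.249) and APA1 of -0.17 (SE 0.077, edgeR adjusted p = 0.337), both close to their values with all libraries. *SESA4* and *AALP* were the members of the 5 lists called in these 6 libraries, with log2 fold changes of -0.63 and -1.73 and edgeR adjusted p of 5.0e-04 and 1.0e-05. *SESA5* and *SESA3* missed the call on the 1.5-fold threshold alone. Their log2 fold changes were -0.51 and -0.47, with edgeR adjusted p of 1.8e-05 and 7.4e-05. Tissue markers were called in the same 6 libraries, in both directions. Lower in *msh-1* were the senescence marker *SAG13* (log2 fold change -1.79), the green tissue marker *RCA* (-1.53) and the seed coat marker *MUM2* (-2.55), and higher were the green tissue markers *LHCB1.3* (1.52) and *RBCS3B* (2.44). The part of these tissues in the *AALP* value was not tested.

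**Figure D4:**
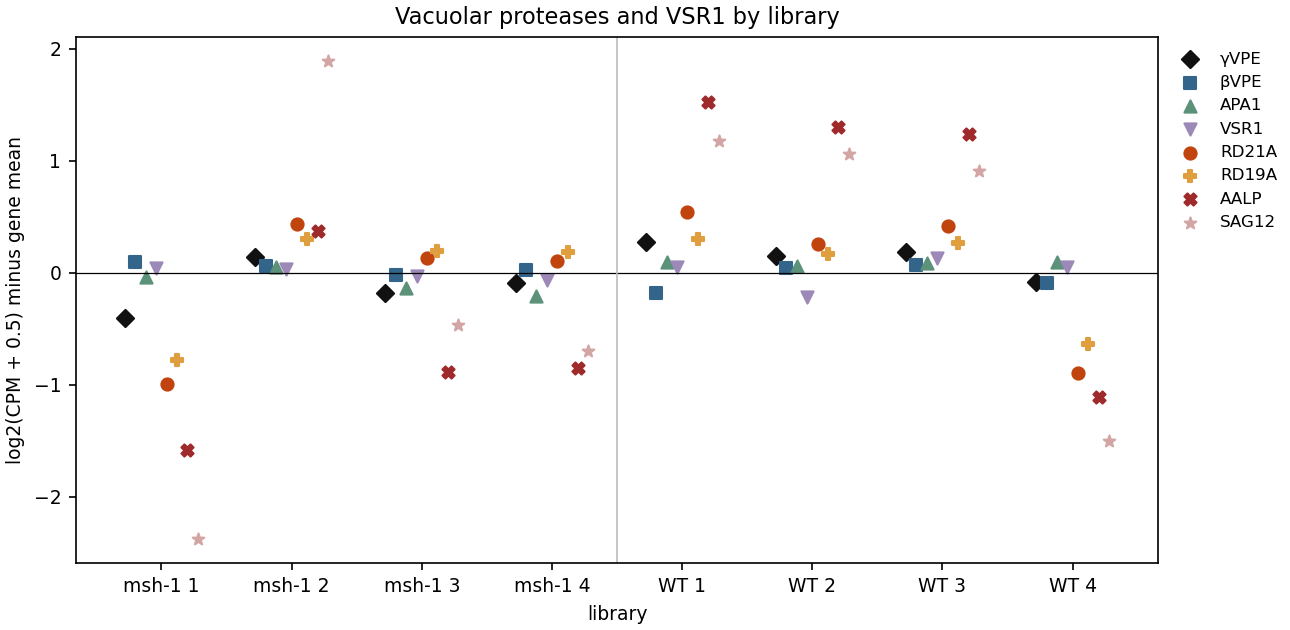
Difference of each gene from its own mean on the log2(CPM + 0.5) scale (vertical axis) in the 4 *msh-1* and the 4 WT libraries (horizontal axis), for γVPE, βVPE, APA1, VSR1 and the papain-type proteases *RD21A*, *RD19A*, *AALP* and *SAG12*. Each symbol is a gene in a library. The papain-type genes shown and γVPE are at their lowest of each genotype in *msh-1* 1 and WT 4. βVPE, APA1 and VSR1 lie closer to 0 than these papain-type genes in both of these libraries. The papain-type genes shown are among the 8 of 10 tested that have this pattern. AT3G54940 and *CTB2*, not shown, do not have it, and AT3G54940 is at its highest of each genotype in both libraries. *SAG12* is also one of the senescence markers.

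The genes whose pattern over the 8 libraries lay closest to that of γVPE, by the root-mean-square difference of centred log2(CPM + 0.5), were *GGT1* (glutamate:glyoxylate aminotransferase, difference 0.068), *LHT1* (an amino acid transporter, 0.074) and AT5G28830 (an EF-hand protein, 0.082). The median difference from γVPE over all tested genes was 0.333. Closest to APA1 were AT3G14075 (a lipase, 0.041), AT5G16880 (annotated as a Target of Myb protein, 0.049) and AT3G21380 (a mannose-binding lectin, 0.050), beside a median of 0.273. The named genes were selected as the closest of all tested genes, so a difference far under the median follows from that selection. A low difference is easier to reach for a gene with little spread, as APA1 was at percentile 7.07 of the SD and γVPE at percentile 38.4.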

How the data were processed

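The authors aligned the 3'RNA-seq reads with STAR 2.7.8a, separated the libraries with BRBseqTools, and deposited a raw, unnormalized table of whole-number counts for each library. The use of molecular identifiers in counting and the strand setting are not given in the sources used here. All 8 gene IDs, and 36899 of 37184 in all, matched the RefSeq TAIR10.1 annotation, which was used for names and overlaps only. The study names TAIR10, so no coordinates or sequences are printed. The ChIRP-seq and ChIDP-seq samples and *MUSHER* itself were not analysed here.

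Counts were compared between *msh-1* and WT with the quasi-likelihood test of edgeR 4.0.16 under R 4.3.3, after its default low-count filter and TMM scaling, with Benjamini-Hochberg adjustment over 10902 genes. A call needed a change of more than 1.5-fold at an adjusted p below 0.05. Standard errors were derived from the log2 fold change and the F statistic. The 3 genes under the filter were compared by the difference of mean log2(CPM + 0.5). An exact two-sided permutation test over 70 assignments of the libraries was run beside each. The study calls the 4 libraries of each genotype biological replicates.

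The 8 genes and the lists were chosen with earlier results of these data known. The genes named from each list are those called and the 2 with the highest mean CPM, and the genes of like pattern are the 3 closest to the most variable and to the most abundant tested gene. Alternatives were other scaling factors, other filters, DESeq2 1.42.0, limma-voom (limma 3.58.1), a replicate block, libraries left out and thinning to equal depth. The code was tested on simulated data, in which all calls of changed genes had the right direction and 12 unchanged genes were called.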

Additional observations from a re-analysis of the deposited data

How the results depend on the processing

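None of the 5 tested genes was called in any of the 18 alternative fits, and γVPE, APA1, βVPE and APA2 kept their direction in all of them. With 1 library left out, the log2 fold change ran from -0.36 to -0.18 for γVPE, from -0.21 to -0.12 for APA1, from 0.031 to 0.11 for βVPE and from 0.085 to 0.17 for APA2. VSR1 changed sign around 0, with 0.0095 (upper-quartile factors), 0.012 (no scaling), 0.026 (no filter), 0.0010 (DESeq2), 0.0078 (equal depth) and -0.086 to 0.041 with 1 library left out. The differences of mean log2(CPM + 0.5) of the genes under the filter kept their direction, with 1 library left out from -0.91 to -0.45 for αVPE, from 0.94 to 1.80 for δVPE and from 0.18 to 0.79 for APA3. The 45 genes called became 25 without scaling, 438 without a filter, 89 with DESeq2, 24 with limma-voom, 280 in 6 libraries, 11 at equal depth (0 to 20 over 21 draws) and 4 to 210 with 1 library left out. It was 210, 154, 24 and 19 without *msh-1* 1, 2, 3 and 4, and 9, 6, 4 and 141 without WT 1, 2, 3 and 4, and the cause was not tested. The 1 gene called in the 5 lists (a count added after seeing the data) became 0 with RLE factors, without scaling and with limma-voom, 2 without a filter and in 6 libraries, and 0 to 3 with 1 library left out. Replicate numbers did not pair the libraries (correlations of same-numbered deviations from -0.22 to 0.15, 1 of 4 highest with its own number), and with the replicate block 24 genes and none of the 5 were called. None of the 20 groups of 4 libraries tested had a library set apart by Dixon's criterion. These groups did not cover *SESA4* or *SESA5*. For *SESA4*, *msh-1* 2 had 593.9 CPM beside 857.8 to 904.8 CPM in the other *msh-1* libraries. For *SESA5*, WT 4 had 21580 CPM beside 14550 to 15370 CPM in the other WT libraries.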
